A study of Rattus norvegicus with 144 samples.

Results

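The genes described here are the cell cycle and DNA replication genes of the rat, taken as a list of 49 symbols: 13 genes of S phase (cyclin E, the replicative helicase, the sliding clamp and the enzymes of deoxynucleotide supply) and 36 genes of mitosis (cyclins A and B with Cdk1 and its regulators, kinetochore, spindle, cytokinesis and anaphase genes). Every probe set whose platform annotation gave one of these symbols was a member, whatever its value. Of the 49 genes, 44 had a probe set, 11 of S phase and 33 of mitosis. They were represented by 63 of 31042 probe sets on the arrays of adrenal, pancreas and the AMG B livers, and by 42 of 15866 probe sets, for 33 genes, on the arrays of the AMG A livers. No probe set carried the symbols Anln, Cdc6, Ndc80, Rrm2 or Tpx2 in the annotation used here, so these 5 genes were not analysed here.

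In a dividing cell, cyclin E with its kinase starts DNA replication, the Mcm proteins unwind the DNA and Pcna clamps the polymerase to it. Cyclin A and then the B cyclins, bound to Cdk1, carry the cell into mitosis, where the kinetochore genes attach chromosomes to the spindle, the anaphase-promoting complex releases the sister chromatids, and kinesins take part in cytokinesis. Most hepatocytes, acinar cells and adrenal cortical cells of a young adult rodent are not in cycle, so in such tissues the transcripts of these genes come from a minority of cells. In bulk tissue, more dividing cells and more of a transcript per cell cannot be told apart.

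The study dosed male Sprague Dawley rats of 8 to 10 weeks by mouth every day with AMG A at 0, 3 or 30 mg/kg or with AMG B at 0, 3 or 60 mg/kg, and took tissue on day 1, 4 or 14. Both compounds are known only by these code names, and the series' design text attributes an antiangiogenic pharmacology to them. Liver was profiled on all 3 days in both studies, adrenal on all 3 days for AMG B and on day 14 for AMG A, and pancreas on day 14 for both, which gave 144 arrays in 36 groups of 4 animals from 72 animals. Animals carried numbers, 1 to 36 in the AMG B study and 3001 to 3036 in the AMG A study, and the tissues of an animal share its number.

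The deposited values are scores in which each probe set was centred near 0 and scaled to an SD near 1 over all the arrays that carry it. A difference below is therefore in units of that SD (SD units) and is not a fold change, and scores of different genes cannot be ranked by abundance. The labelled tissues carried their defining markers: the median over arrays of the mean hepatocyte marker score was 0.805 and 1.01 in the livers of the AMG B and AMG A studies against -0.881 to -0.985 elsewhere. Adrenal cortex markers stood at 1.06 to 1.28 in adrenal, and acinar markers at 2.26 to 2.28 in pancreas. Each dose group was compared with the 0 mg/kg group of its study, tissue and day in limma, and p-values were adjusted by Benjamini-Hochberg over every probe set of the table. A member was called at an adjusted p under 0.05. Every test rests on 4 animals a group.

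The mitotic and S-phase members also differ in their promoters, which the choice of members did not use. RefSeq promoter sequences (build GRCr8) were matched by symbol for 27 mitotic and 9 S-phase members and searched in the 250 bases before the gene start, on both strands. The CHR letters TTTGAA were found in 48.1% of the mitotic and 11.1% of the S-phase promoters, and in 16.0% of all 27457 promoters. CCAAT occurred in 74.1% and 55.6% of them, against 34.3% of all promoters, and CCAAT together with a CHR (also counting its variant form, spelled TTCGAA) in 48.1% and 11.1%, against 6.22%. Either CHR form was found in 51.9% of the mitotic and 22.2% of the S-phase promoters, against 17.3% of all. The variant form alone went the other way, at 7.41% and 11.1%, against 1.5%. For E2F the letters TTCCCGC were searched together with a second form, spelled TTGGCGC, and a further form, spelled TTCGCGC, which can overlap the second on opposite strands. Any of these E2F forms was found in 55.6% of the S-phase and 11.1% of the mitotic promoters, against 6.41% of all. The CHR and CCAAT boxes are known from promoters of genes expressed late in the cell cycle, and E2F sites from those of replication genes. The stretches below show these letters in 3 mitotic and 2 S-phase members, to let the letters be compared. They were picked by hand and do not stand for their lists: the S-phase promoters of Mcm2 and Mcm7 hold a CHR. Capitals mark every match to a searched motif, on either strand, and each stretch reads 5′ to 3′ along the gene.

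Cdkn3, chr15:22502179-22502298, plus strand: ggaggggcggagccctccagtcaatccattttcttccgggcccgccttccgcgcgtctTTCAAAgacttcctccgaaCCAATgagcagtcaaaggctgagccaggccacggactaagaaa
Cdk1, chr20:19265132-19265251, plus strand: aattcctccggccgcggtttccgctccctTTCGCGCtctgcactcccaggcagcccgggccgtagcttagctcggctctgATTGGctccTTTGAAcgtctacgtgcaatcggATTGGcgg
Top2a, chr10:84473094-84473213, minus strand: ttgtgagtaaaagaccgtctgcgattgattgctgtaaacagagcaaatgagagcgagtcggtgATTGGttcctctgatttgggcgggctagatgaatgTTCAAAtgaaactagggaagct
Mcm5, chr19:13488693-13488812, plus strand: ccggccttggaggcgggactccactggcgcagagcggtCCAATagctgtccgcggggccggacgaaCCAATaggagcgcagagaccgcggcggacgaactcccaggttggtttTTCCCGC
Mcm6, chr13:42404353-42404472, minus strand: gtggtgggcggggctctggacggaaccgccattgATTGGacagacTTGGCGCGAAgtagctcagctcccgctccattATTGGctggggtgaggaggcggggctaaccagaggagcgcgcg
The 3 mitotic stretches each hold a CHR and a CCAAT box a short distance apart, Cdk1 also holds an E2F match, and the 2 Mcm stretches hold CCAAT boxes with E2F letters and no CHR. A match describes letters only, and binding was not measured.

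Over the 24 comparisons of a dose with its control, members were called in 4, all at 60 mg/kg of AMG B: liver on days 4 and 14, adrenal on day 14 and pancreas on day 14. In these 4 comparisons 26 of the 44 genes were called at least once, 20 mitotic and 6 of S phase (Tk1, Tyms, Ccne2, Mcm3, Mcm4 and Mcm5). All but 1 of the calls were increases. The 18 genes never called were Aurka, Aurkb, Birc5, Bub1, Ccne1, Cdc20, Kif11, Kif2c, Mad2l1, Mcm2, Mcm6, Mcm7, Nusap1, Pbk, Pcna, Plk1, Racgap1 and Ttk, which include the sliding clamp and 3 of the 6 helicase subunits.

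**Figure D1:**
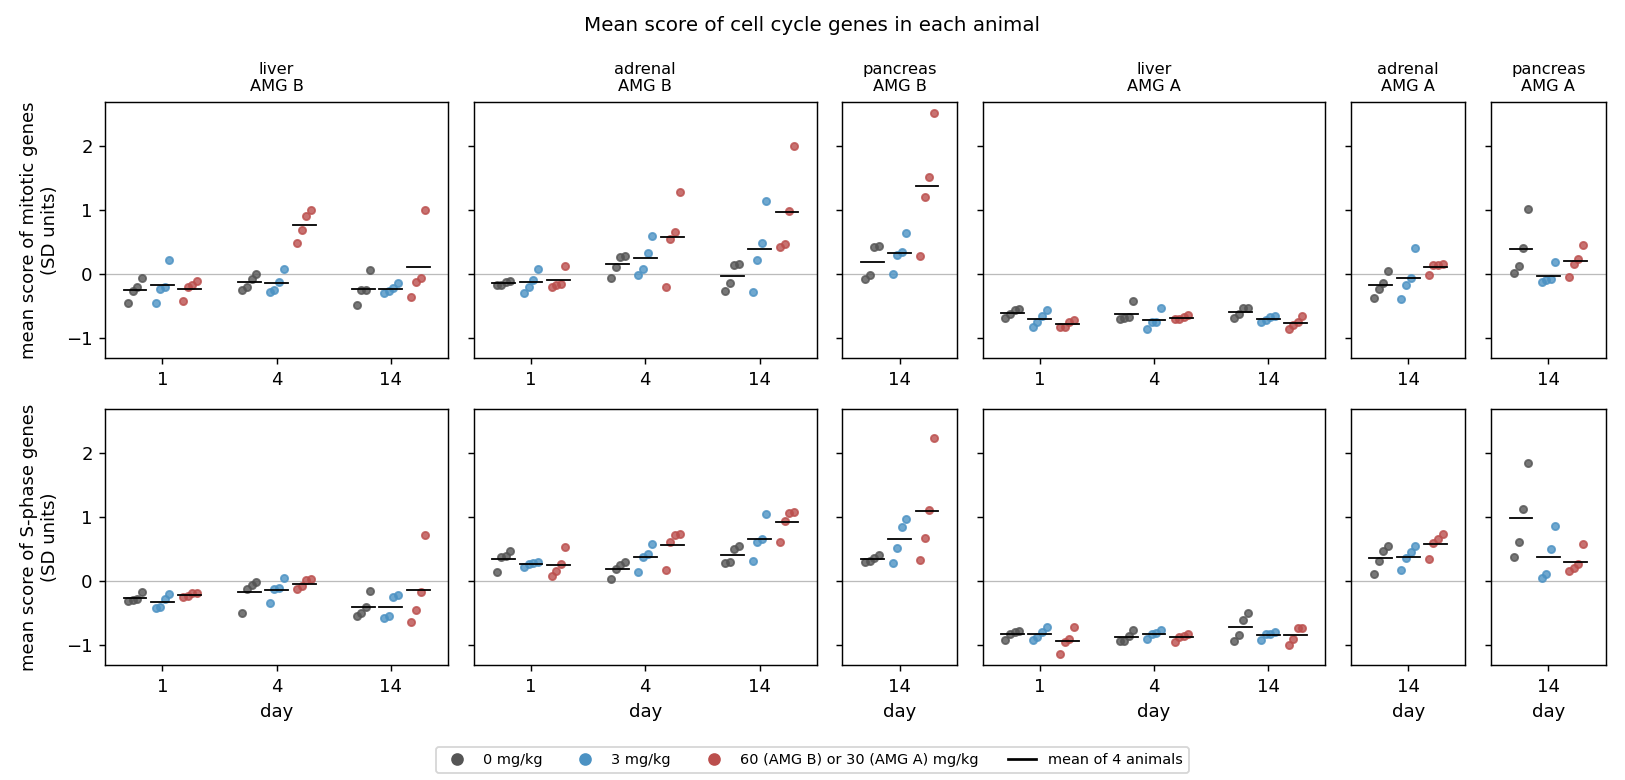
Mean score (SD units) of the 33 mitotic genes (upper panels) and the 11 S-phase genes (lower panels; in the AMG A livers 22 and 11 genes) in each animal, by day, for each tissue and compound; points are animals, coloured by dose, and black bars are means of 4 animals. The 60 mg/kg livers of day 4 lie between 0.484 and 1.00 for mitotic genes, above all 4 controls, and single animals stand far above the rest of their group on day 14.

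In liver, 4 days of AMG B at 60 mg/kg raised 12 member probe sets of 12 genes: 11 of mitosis and the S-phase gene Tk1. Over all probe sets 0.412% were called higher in that comparison, against 12 of the 63 members, and no member was called lower. The genes that rose were Cdk1 and its cyclin partners and phosphatase (Cdk1, Ccna2, Ccnb1, Ccnb2, Cdkn3), the anaphase ubiquitin-conjugating enzyme Ube2c, the cytokinesis and spindle genes Kif20a, Ect2, Prc1 and Hmmr, the mitotic topoisomerase Top2a and thymidine kinase Tk1. In all 12 every treated liver lay above every control liver. Counting members without regard to the test, 24 of 63 had all treated livers above all controls, against 4.3% of all probe sets. The median difference was 0.84 over the 33 mitotic genes and 0.16 over the 11 S-phase genes, each by 1 probe set a gene, and 0.0055 over all probe sets. Scores were above 0 for 27, 27, 22 and 22 of the 33 mitotic genes in treated animals 21 to 24, and for 14, 9, 11 and 12 in control animals 13 to 16.

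Cdkn3, a phosphatase that acts on cyclin-dependent kinases, changed most. It stood at 0.21, -0.48, -0.64 and -0.51 in the 4 control livers, at -0.50, -0.41, 0.05 and -0.42 at 3 mg/kg, and at 3.27, 3.41, 3.09 and 1.86 at 60 mg/kg. The 3 mg/kg livers overlapped the controls and every 60 mg/kg liver stood apart from both. The difference from control was 3.26 (SE 0.355, limma with Benjamini-Hochberg adjusted p = 2.25e-06). Cdk1, the kinase itself, was 0.21, -0.51, -0.67 and -0.55 in controls and 1.93, 1.97, 1.23 and 1.14 at 60 mg/kg, a difference of 1.95 (SE 0.321, adjusted p = 0.00163). All controls lay below the lowest treated liver, and animals 21 and 22 were the highest. Its mitotic partner Ccnb1, read by the probe set 1370345_at, was 0.62, 0.03, -0.60 and -0.30 in controls and 2.86, 3.35, 2.29 and 1.99 in treated livers (difference 2.68, SE 0.548, adjusted p = 0.0136). Ccnb2 was -0.15, -0.38, -0.61 and -0.23 against 1.77, 1.32, 1.36 and 0.90 (difference 1.68, SE 0.286). Cyclin A, encoded by Ccna2, was 0.01, -0.61, -0.75 and -0.34 against 1.92, 1.88, 0.48 and 1.13 (difference 1.78, SE 0.315), with animal 23 nearest the controls.

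The cytokinesis kinesin Kif20a stood at -0.04, -0.72, -0.12 and -0.60 in control livers and at 1.80, 1.95, 1.27 and 0.98 in treated livers, a difference of 1.87 (SE 0.249, limma adjusted p = 7.84e-05). Top2a, which untangles sister chromatids, was 0.29, -1.08, -0.66 and -0.26 against 2.58, 2.07, 0.77 and 0.76 by the probe set 1388650_at (difference 1.97, SE 0.437, adjusted p = 0.0247). In both genes animals 21 and 22 were the highest. Ube2c was 0.21, -0.13, -0.63 and -0.45 against 2.24, 1.52, 0.71 and 0.90 (difference 1.59, SE 0.317), with the same 2 animals on top. Hmmr, which binds the spindle, was 0.85, 0.51, 0.94 and 0.98 against 2.50, 2.79, 2.22 and 1.99 by 1370462_at (difference 1.56, SE 0.330). The S-phase enzyme Tk1 was 0.05, -0.13, -0.53 and 0.21 against 1.73, 1.33, 1.66 and 0.88 by 1389858_at (difference 1.50, SE 0.272, adjusted p = 0.00416). The other 2 calls were the cytokinesis gene Ect2 (difference 1.32, SE 0.299) and the midzone bundler Prc1 (difference 1.13, SE 0.261). Treated livers were again apart from controls in every one of these. Animal 24 was the lowest treated liver in all of them except Ube2c, where animal 23 was.

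Other probe sets of the called genes were less different or noisier in the same livers. The second Ccnb1 probe set differed by 0.57 (adjusted p = 0.258) and the second Top2a probe set by 0.54 (adjusted p = 0.667). For Tk1 the second probe set differed by 0.15 (adjusted p = 0.943), and for Hmmr by 1.98 with an SE of 0.623 (adjusted p = 0.148). Among members not called, the proliferation antigen Mki67 was 0.26, -0.26, -0.59 and -0.28 in controls and 1.07, 0.96, 0.79 and 1.14 at 60 mg/kg. Its groups did not overlap, and the difference of 1.20 had a limma adjusted p of 0.093. The replication genes Pcna and Mcm2 differed by 0.16 (adjusted p = 0.562) and 0.26 (adjusted p = 0.707).

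**Figure D2:**
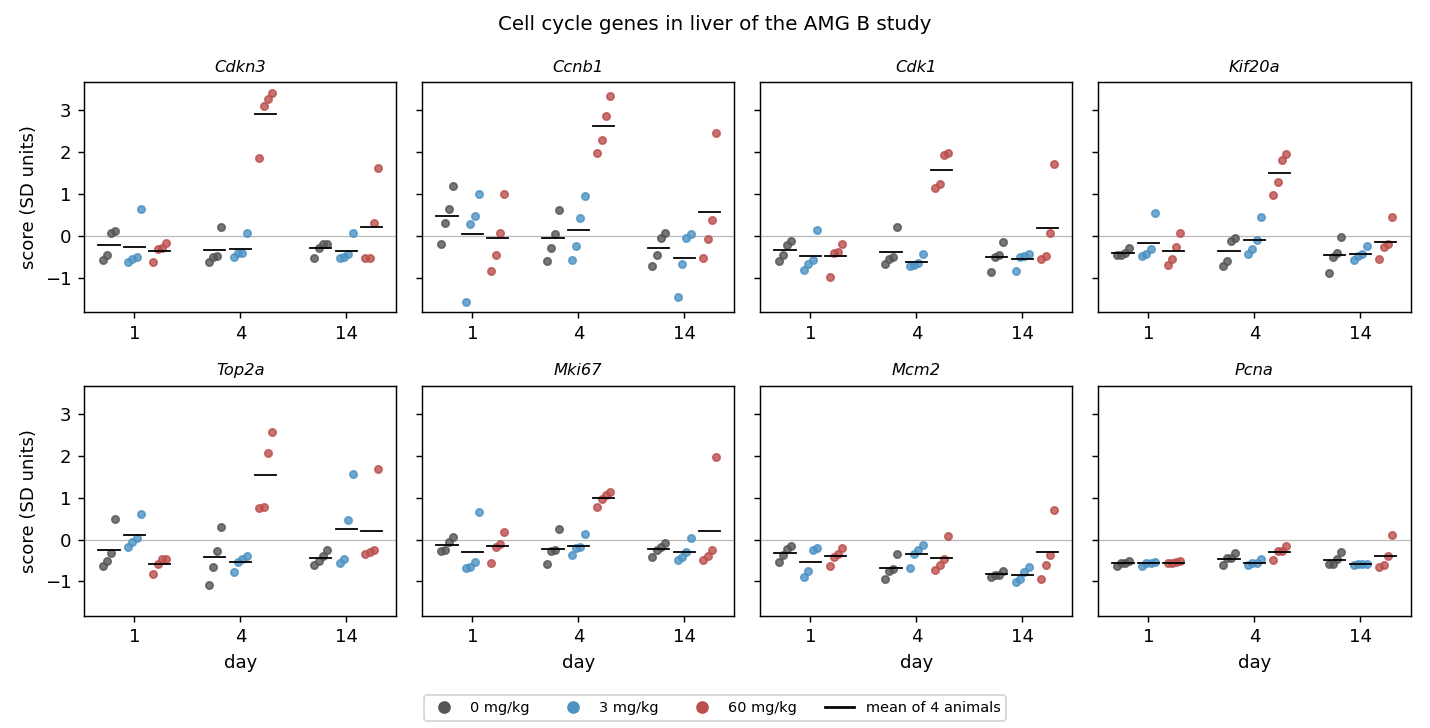
Score (SD units) of 8 members, each by its probe set with the smallest p on day 4, in each liver of the AMG B study on days 1, 4 and 14; points are animals coloured by dose and black bars are means of 4. The 60 mg/kg livers rise apart on day 4 for Cdkn3 (1.86 to 3.41), Ccnb1, Cdk1, Kif20a, Top2a and Mki67, and on day 14 a single 60 mg/kg animal is high in most panels.

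No member was called at 3 mg/kg or on day 1 in liver. Set against the 3 mg/kg livers of the same day, the same 12 probe sets were called higher, where 0.145% of all probe sets were. Cdkn3 differed by 3.23 and Cdk1 by 2.20. Leaving out 1 animal gave 8 to 11 calls in this comparison. Ccnb1, Prc1 and Top2a lost their calls in 8, 7 and 6 of the 8 omissions. At 3 mg/kg on day 4, 29 of 63 members lay above their control mean, and Cdkn3 differed by 0.04. On day 1 at 60 mg/kg, 29 of 63 members lay above control and Cdkn3 differed by -0.14. Tested directly, the effect of 60 mg/kg on Cdkn3 was larger on day 4 than on day 1 by 3.40 (SE 0.502, limma adjusted p = 0.00614), the only call among 31042 probe sets (0.00322% higher). It was smaller on day 14 than on day 4 by 2.74 (adjusted p = 0.0145; 0.113% of probe sets were lower). With all animals included no other member was called in these tests between days. Without animal 35, however, 13 members had a smaller effect on day 14 than on day 4, where 0.287% of all probe sets were called, among them Cdkn3 (-3.21), Cdc20 (-2.62), Bub1 (-2.03), Ube2c (-1.91), Cdk1 (-1.78) and the S-phase genes Tk1 (-1.32) and Mcm6 (-0.75). Fitting only the groups compared, the call for Cdkn3 on day 14 against day 4 was lost. The count against control on day 4 ranged from 7 to 12 when 1 animal was left out, and was 7 without animal 21 (Tk1, Ccna2, Ccnb1, Ccnb2, Cdk1, Cdkn3 and Kif20a).

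Other genes moved in the same livers. Of 70 further cell cycle genes measured, 4 rose (Aspm 1.35, Spc24 1.29, Cdca3 0.80 and H2az1 0.55) and the phosphatase gene Cdc25b fell by 1.23, with a list median of 0.30. None of 18 Cdk inhibitors and p53 targets was called, 2 at an unadjusted p under 0.05. Of 8 erythroid markers, Alas2 fell by 2.46, Hbb by 1.86 and Hba-a3 by 1.72; the list's mean ranged from -0.0648 to 1.04 in controls and from -0.713 to -0.295 in treated livers. Of 10 macrophage markers Mrc1 fell by 1.56, with a list median of -1.26 and means from 0.374 to 1.29 in controls and -0.538 to 0.417 in treated livers. Of 11 endothelial markers Lyve1 fell by 1.84, with means from 0.209 to 0.658 and from -0.516 to -0.130. None of 10 hepatocyte or 10 lymphocyte markers was called, and 0 and 1 of them reached an unadjusted p under 0.05. The part of these cell populations in the cell cycle result was not tested.

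On day 14 in liver, 1 member was called higher at 60 mg/kg, the helicase subunit Mcm4, where 2.96% of all probe sets were. Mcm4 was -0.68, -0.77, -0.93 and -0.99 in controls and -0.59, -0.52, 1.21 and -0.48 in treated animals 33 to 36, a difference of 0.75 (SE 0.219, limma adjusted p = 0.0398). Animal 35 alone was far above the controls. Mcm4 was not called without animal 35, nor without any 1 of the 4 controls. Without animal 35, members with a positive difference went from 54 to 33 of 63. The mitotic median went from 0.32 to -0.0011 and the S-phase median from 0.21 to -0.061, and the second Ccnb1 probe set, 1370346_at, was called lower (-0.65, adjusted p = 0.0237). The scores of animal 35 were 1.61 for Cdkn3, 1.70 for Cdk1 and 1.96 for Mki67, where the other 3 treated livers ranged from -0.53 to 0.31, -0.55 to 0.05 and -0.49 to -0.25. Its mean macrophage marker score was 1.15, within the controls' range of 0.621 to 1.50, while the other 3 treated livers ranged from -0.537 to -0.207, where 7 of 10 macrophage markers fell in the group. Of the other lists, 5 of 11 endothelial and 3 of 8 erythroid markers fell. Their part in the result was not tested.

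In adrenal, 14 days of AMG B at 60 mg/kg raised 13 member probe sets, 9 of mitosis and 4 of S phase, where 3.12% of all probe sets were higher, and none was called lower. The S-phase genes were Ccne2 and the helicase subunits Mcm3, Mcm4 and Mcm5. The mitotic genes were Cdk1, Ccna2, Cdkn3 and Cks2 of the Cdk1 group, the checkpoint kinase gene Bub1b, the kinetochore gene Nuf2, Ect2, Top2a and Foxm1, a transcription factor of mitotic genes. In 11 of the 13 all treated glands lay above all controls, and Mcm4 and Cks2 overlapped. Over all members 22 of 63 had no overlap, against 5.16% of all probe sets. The median difference was 1.09 for mitotic genes, 0.59 for S-phase genes and 0.00087 for all probe sets.

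Ccne2, the cyclin of replication start, was -0.09, 0.73, 0.14 and -0.36 in control glands, 0.09, 1.16, 1.23 and 2.01 at 3 mg/kg, and 2.30, 0.89, 2.58 and 2.65 at 60 mg/kg by the probe set 1374359_at. The 3 mg/kg glands spanned the gap between the other groups. The difference of 60 mg/kg from control was 2.00 (SE 0.383, limma with Benjamini-Hochberg adjusted p = 0.000772), and the second Ccne2 probe set differed by -0.24 (adjusted p = 0.766). Mcm5 was 0.07, -0.37, 0.15 and -0.47 in controls and 2.02, 0.71, 1.55 and 1.37 at 60 mg/kg (difference 1.57, SE 0.425, adjusted p = 0.0196). Mcm3 was -0.11, 0.42, -0.07 and -0.17 against 0.90, 0.56, 1.21 and 1.11 (difference 0.93, SE 0.234). Animal 34 was the lowest treated gland for all 3 of these genes. Mcm4 was 0.52, 0.37, 1.13 and 0.75 against 1.82, 0.80, 1.48 and 1.72 (difference 0.76, SE 0.219).

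Among mitotic genes, Bub1b stood at -1.75, -0.95, -1.76 and -1.61 in control glands, at -0.13, -0.95, -0.24 and 0.07 at 3 mg/kg, and at 0.45, 0.63, 1.12 and 1.02 at 60 mg/kg (difference 2.32, SE 0.530, limma adjusted p = 0.00466). The 60 mg/kg glands were close together and apart from both other groups; the controls were low beside those of day 4, which averaged -0.10. Ccna2 was 0.01, -0.19, -0.23 and 0.56 in controls and 1.54, 0.99, 4.44 and 2.14 at 60 mg/kg (difference 2.24, SE 0.536). Cdkn3 was -0.21, 0.65, -0.08 and 0.33 against 1.13, 1.77, 3.52 and 3.10 (difference 2.21, SE 0.491, adjusted p = 0.00364). Cdk1 was 0.19, 0.64, 0.17 and 0.89 against 1.21, 1.19, 5.26 and 2.60 (difference 2.09, SE 0.569). In these 3 genes animal 35 was the highest and animal 36 the next. Ect2 was 0.30, 0.62, -0.43 and 0.60 against 1.52, 1.37, 3.58 and 2.27 (difference 1.91, SE 0.516). Nuf2 was -1.06, -0.33, -0.09 and -0.43 against 0.55, 0.47, 1.67 and 0.61 (difference 1.30, SE 0.362). Top2a was 0.53, 0.46, 0.02 and 0.19 against 1.33, 0.82, 2.26 and 1.21 by 1372186_a_at (difference 1.10, SE 0.322). Animal 35 was the highest in each of these 3. Foxm1 (difference 1.03, SE 0.311) and Cks2 (difference 1.15, SE 0.360) completed the calls, and Mki67 differed by 1.17 without overlap at an adjusted p of 0.0666.

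The 3 mg/kg glands overlapped both other groups in mean mitotic score. Between 60 and 3 mg/kg on day 14 no member was called by limma, where 4.5% of all probe sets were; 14 of 63 members had an unadjusted p under 0.05, where 17.4% of all probe sets did, and leaving out 1 animal gave 0 to 6 calls. The mean mitotic score at 3 mg/kg was -0.286, 0.212, 1.15 and 0.491. It covered the control range of -0.268 to 0.158 and the lower part of the 60 mg/kg range of 0.419 to 2.00. On day 4 at 60 mg/kg no member was called, where 0.889% of all probe sets were; 13 of 63 had an unadjusted p under 0.05, where 11.4% of all probe sets did, and 54 of 63 had a positive difference. The smallest p was that of Mcm3, at -0.46, -0.16, -0.66 and -0.81 in controls and 0.07, 0.15, 0.37 and 0.62 at 60 mg/kg (difference 0.82, SE 0.234, adjusted p = 0.084), with no overlap. Leaving out animal 22 called Ccnb2 higher, and leaving out animal 24 called Aurka, the gene of a mitotic kinase. On day 1 at 60 mg/kg, 33 of 63 were above control. Tested directly, the effect on Mcm4 was larger on day 14 than on day 1 by 1.22 (SE 0.310, adjusted p = 0.0365), the only member called, where 0.667% of probe sets were higher; Mcm4 differed by -0.46 on day 1 (adjusted p = 0.527). Fitting only the groups compared, Mcm4 lost this call (adjusted p = 0.192) and Bub1b was called instead (2.31, adjusted p = 0.0314). With 1 of the 16 animals left out, 0 to 5 members were called in that test: none without animal 1, 2, 9, 12, 25, 26, 28, 35 or 36, and 5 without animal 34.

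The adrenal calls rested in part on animal 35. Leaving out 1 animal in turn gave 5 to 17 calls, where 2.09% to 3.7% of all probe sets were higher; the 5 without animal 35 were Ccne2, Mcm3, Mcm5, Bub1b and Cdkn3, 17 were called without animal 34, and 8 without control animal 25 or 27. The mitotic median without animal 35 was 0.62. Fitting only the 2 groups compared, without the other adrenal groups' spread, left 1 call, Bub1b, where 0.403% of all probe sets were called, and quantile normalization left 7, where 4.62% were. Animal 35's gland also stood apart in other lists: its mean score for stellate and fibroblast markers was 3.15, where the other 3 treated glands ranged from -0.102 to 0.116 and controls from 0.119 to 0.275, and its endothelial mean was 0.565, where the others ranged from -0.675 to -0.504. The part of these cell populations was not tested.

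Beside the members in adrenal on day 14, 7 of 70 further cell cycle genes rose and none fell, among them the origin licensing factor Cdt1 (1.72), the E2F-family partner Rbl1 (1.61), Uhrf1 (1.58), Mybl2 (1.22) and Zwint (1.11). Of 18 Cdk inhibitors and p53 targets 3 rose: Cdkn1c, an inhibitor of cyclin-dependent kinases, by 2.81, Cdkn1a by 0.61 and Sesn2 by 0.49. The endothelial markers Tek, Tie1 and Emcn fell by 2.70, 2.74 and 1.57, 3 of 11 measured. Of 10 macrophage markers 5 fell, with a list median of -0.48, and Tfrc, the transferrin receptor of the erythroid list and of dividing cells, rose by 3.50. Of 8 adrenal cortex markers Scarb1 rose by 0.55, and none of 7 adrenal medulla markers was called (0 at an unadjusted p under 0.05). Whether these moved the member result was not tested.

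The control glands themselves differed between days. In controls of the AMG B study, day 14 against day 1 gave 7 members higher and 4 lower, where 14.2% and 11.1% of all probe sets were, and day 14 against day 4 gave 6 higher and 8 lower, where 14.1% and 11.4% were. Foxm1 was lower on day 14 than on day 1 by 1.71 (SE 0.311, limma adjusted p = 0.000107) and Hmmr, by 1370461_at, by 1.86 (SE 0.317), whereas the second probe sets of these genes differed by 0.66 (adjusted p = 0.186) and -0.24 (adjusted p = 0.770). Bub1b, which was called higher at 60 mg/kg on day 14, was itself lower in the day 14 controls than in those of day 4 by 1.42 (SE 0.530, adjusted p = 0.0450). Against day 1, the day 14 controls were higher in the mitotic kinase gene Aurka by 1.26 (SE 0.333). The 3 probe sets of Mad2l1, a checkpoint gene, did not move one way from day 1 to day 14 (-0.85, 1.03 and 0.71). The members' shares were near those of all probe sets, and day and array processing cannot be told apart. Dose groups were compared only within a day. In liver controls of the 2 studies no member differed between days by limma over 6 comparisons, where 0.0121% of all probe sets did, and 11 of 315 member tests had an unadjusted p under 0.05, where 7.57% of all tests did.

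In pancreas, 14 days of AMG B at 60 mg/kg raised 14 member probe sets, 13 of mitosis and the S-phase gene Tyms, where 4.98% of all probe sets were higher. Pttg1 was called lower, where 4.9% were. The genes that rose were Cdk1, Ccna2, Ccnb1, Ccnb2 and Cks2, the kinetochore genes Cenpf and Nuf2, Ube2c, Mki67, Top2a, the cytokinesis genes Prc1 and Kif23, the kinase gene Melk, and Tyms, which makes thymidylate for DNA. In 9 of the 14 all treated pancreata lay above all controls. Over all members 15 of 63 did, against 8.37% of all probe sets. The median difference was 1.15 for mitotic genes and 0.76 for S-phase genes, against -0.017 for all probe sets.

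Mki67 was 0.08, 0.37, 0.08 and -0.13 in control pancreata, 1.62, -1.04, 0.78 and 0.70 at 3 mg/kg, and 3.73, 4.99, 6.27 and 0.60 at 60 mg/kg (difference 3.79, SE 0.856, limma with Benjamini-Hochberg adjusted p = 0.00901). Animals 33 to 35 were far above every control and animal 36 just above. Ube2c was -0.58, -0.40, -0.17 and -0.53 against 2.32, 5.41, 3.77 and 1.58 (difference 3.69, SE 0.810, adjusted p = 0.00775). Cenpf was -1.81, -2.62, -2.12 and -1.23 against 0.64, 1.23, 4.12 and -0.09 (difference 3.42, SE 0.595, adjusted p = 0.00175). Ccnb2 was -1.25, -0.98, -0.61 and -1.75 against 1.15, 2.12, 3.56 and 0.03 (difference 2.86, SE 0.563). In Cenpf and Ccnb2, too, animal 35 was highest and animal 36 lowest of the treated. Nuf2 was -1.57, -1.86, -1.38 and -2.02 against 0.51, 0.68, 3.36 and -0.27 (difference 2.78, SE 0.820). Ccna2 was -0.98, -0.88, -0.40 and -1.33 against 2.44, 1.12, 3.54 and -0.23 (difference 2.61, SE 0.585). Ccnb1 was -1.42, -1.17, -1.64 and -1.67 against 2.29, 0.77, 2.07 and -1.12 by 1370345_at (difference 2.47, SE 0.544). Animal 36 lay just above the highest control for both cyclins.

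Kif23 was 0.92, 0.03, 0.02 and -0.54 in controls and 2.09, 1.18, 6.86 and 0.94 at 60 mg/kg by 1391063_at (difference 2.66, SE 0.840, limma adjusted p = 0.0493), and its other probe set 1395828_at differed by -1.06 (adjusted p = 0.365). The S-phase gene Tyms was -0.68, -0.62, -0.36 and -0.35 against 0.68, 0.97, 0.62 and -0.06 (difference 1.05, SE 0.313, adjusted p = 0.0379). Pttg1, which encodes securin, was 2.59, 4.21, 1.72 and 0.94 in controls, -0.17, 2.21, 0.13 and 3.50 at 3 mg/kg, and -0.46, -0.23, -0.15 and 0.28 at 60 mg/kg, a fall of 2.50 (SE 0.757, adjusted p = 0.0411) against the direction of the other calls. All 4 treated pancreata were below all controls, and the 3 mg/kg group overlapped both. The calls with overlap were Top2a by 1388650_at (difference 3.28, SE 0.901), Melk (2.67, SE 0.810), Cks2 (2.66, SE 0.812), Prc1 (2.33, SE 0.661) and Cdk1 (1.93, SE 0.571). The other probe sets of Top2a and Ccnb1, 1372186_a_at and 1370346_at, were not called in pancreas. Cdkn3 was -0.01, -0.01, 0.28 and 0.91 against 1.40, 3.37, 2.98 and -0.11, a difference of 1.62 that was not called (adjusted p = 0.0599). Pcna, the sliding clamp, was -0.78, -0.70, -0.96 and -0.59 against 1.30, -0.25, 0.38 and -0.32 (difference 1.03, adjusted p = 0.113), with no overlap.

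**Figure D3:**
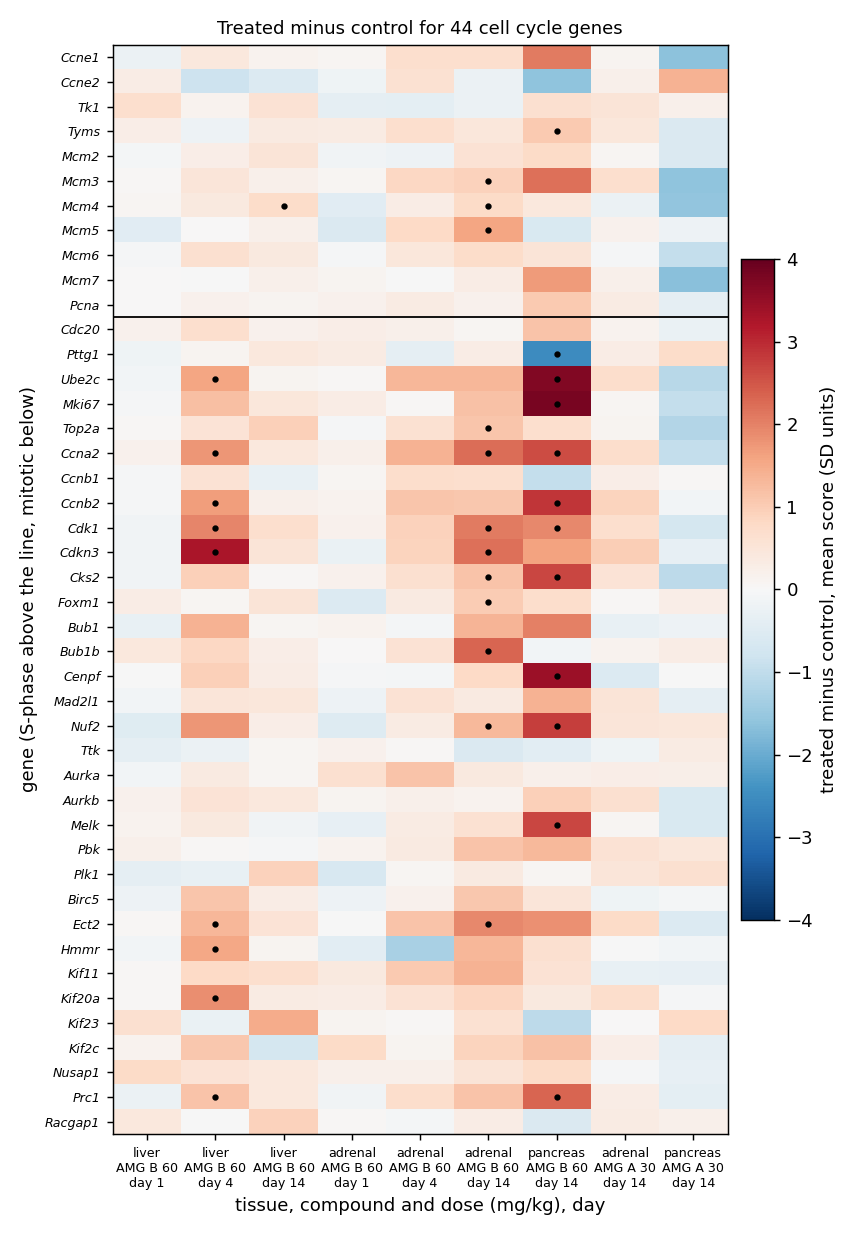
Treated minus control mean score (SD units, colour) of the 44 member genes, 1 probe set a gene, in the 60 mg/kg AMG B comparisons of each tissue and day and the 30 mg/kg AMG A comparisons of adrenal and pancreas on day 14; dots mark an adjusted p under 0.05 for the probe set shown. Dots lie in the liver day 4, liver day 14, adrenal day 14 and pancreas day 14 columns of AMG B, and 1 of them, Pttg1 in pancreas, is a decrease; calls by another probe set of Ccnb1, Ccne2, Kif23, Tk1 and Top2a are not shown.

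Against 3 mg/kg on day 14, 3 members were called higher in pancreas, Ccnb2 (2.32), Cenpf (2.50) and Mki67 (3.38), where 2.46% of all probe sets were. The pancreas counts moved with single animals. With 1 animal left out, 6 to 21 members were called at 60 mg/kg against control: 6 without animal 27 or animal 35, 7 higher and 1 lower without animal 28, 8 without 26, 9 without 25 or 34, and 21 without animal 36. Over all probe sets 2.93% to 4.47% were called higher in these fits. Pttg1 was called only with all animals or without animal 28. The 6 called without animal 35 were Ccna2, Ccnb1, Ccnb2, Cenpf, Mki67 and Ube2c. Fitting only the 2 groups compared left 1 of 63 members called, Ube2c, where 4.67% of all probe sets were called, so that in this fit the members' share was not above that of all probe sets. Against 3 mg/kg the count went from 0 (without animal 30 or 32) to 15 (without animal 36).

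The treated pancreata differed from controls in their cell type markers as well. Of 9 acinar markers 8 fell, by 1.05 for Cpa1 to 1.21 for Ctrb1; the mean acinar score was 2.78, 2.68, 2.29 and 3.10 in controls and 1.65, 1.67, 1.56 and 1.67 at 60 mg/kg. Of 6 islet markers Ins1 fell by 0.69 and Ins2 by 0.83, and of 11 endothelial markers Tek fell by 1.62 and Kdr by 0.73. Acta2, of 10 stellate and fibroblast markers, rose by 2.28; that list's mean was 2.23, -0.423, 1.83 and 0.507 in animals 33 to 36, against -0.0727 to 0.631 in controls. The mean of 10 lymphocyte markers reached 4.36 in animal 33, while the remaining treated pancreata ranged from -0.216 to -0.111, against 0.0429 to 0.341 in controls, and it was 3.65 and 3.42 in 2 of the 3 mg/kg pancreata. Animal 33 had a mean S-phase score of 2.24, the highest of its group, and a mean mitotic score of 1.20. Without animal 33, 10 members were called. Of 70 further cell cycle genes 5 rose, among them Trip13 (2.54), Prim1 (2.32) and Cdk4 (1.61), and Incenp and Cdc45 fell by 2.07 and 1.03. The part of these cell populations in the result was not tested.

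The day 14 livers, adrenals and pancreata came from the same animals, and animal 35 had the highest mean mitotic score of its group in all 3. In liver the treated animals 33 to 36 stood at -0.127, -0.353, 0.998 and -0.0544, in adrenal at 0.467, 0.419, 2.00 and 0.981, and in pancreas at 1.20, 1.53, 2.51 and 0.276. The other 3 animals did not keep 1 order over the tissues. Animal 35 was the highest of the 4 in 29, 28 and 21 of the 33 mitotic genes in liver, adrenal and pancreas, where over all probe sets it was the highest in 33.0%, 24.7% and 20.7%. It was the lowest in 34.1%, 36.1% and 20.2% of all probe sets and in 2, 1 and 0 of the mitotic genes. Its liver and adrenal arrays thus stood apart beyond the members. For the 11 S-phase genes it was the highest in 9, 4 and 1. Animal 36 was the lowest in 22 of 33 mitotic genes in pancreas, and in 2 of 33 in adrenal.

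**Figure D4:**
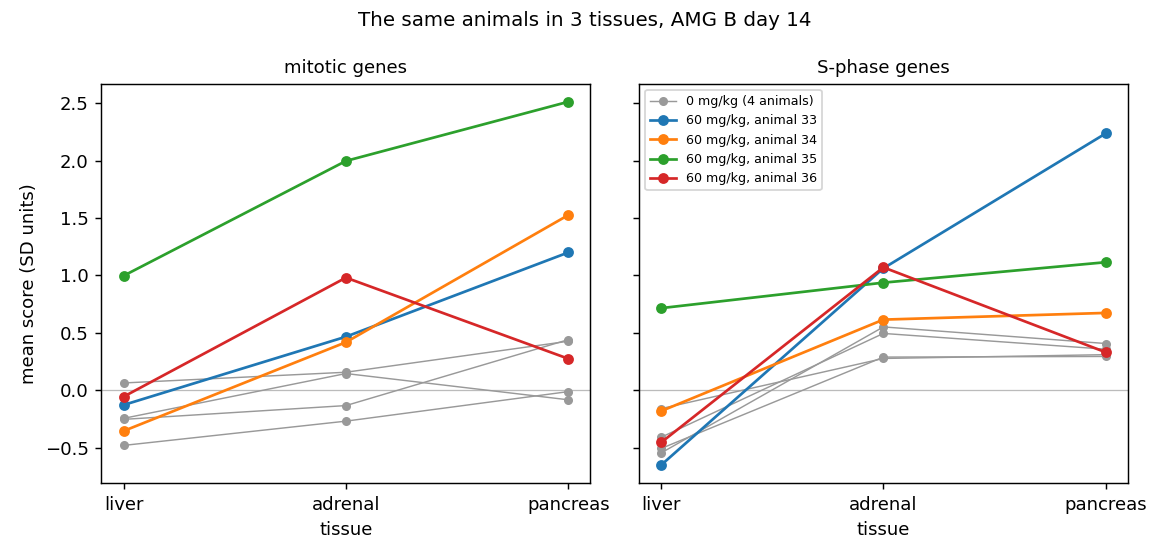
Mean score (SD units) of mitotic (left) and S-phase genes (right) in liver, adrenal and pancreas of the same animals on day 14 of the AMG B study; each line is 1 animal, grey for the 4 controls and coloured for the 4 animals at 60 mg/kg. Animal 35 is the top line of the left panel in every tissue, at 0.998, 2.00 and 2.51.

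Which members rose differed in part between the tissues. Liver on day 4 and adrenal on day 14 shared 4 called probe sets (33.3% and 30.8% of their calls: Ccna2, Cdk1, Cdkn3 and Ect2), liver on day 4 and pancreas shared 7 (58.3% and 50.0% of the increases), and adrenal and pancreas shared 4 (30.8% and 28.6%). Only the probe sets of Ccna2 and Cdk1 were called in all 3. As a gene, Top2a was called in all 3 as well, by 1388650_at in liver and pancreas and by 1372186_a_at in adrenal. Helicase subunits were called in adrenal and, with Mcm4, in liver on day 14, and none was called in pancreas or in liver on day 4. Between tissues on the same day, the tests that follow called no helicase subunit, so a difference between tissues was not shown for them. Liver on day 4 was not tested against adrenal on day 14. Tests of the difference between tissues in the effect of 60 mg/kg gave few calls. Bub1b differed more in adrenal than in pancreas on day 14, by 2.42 (SE 0.525, limma adjusted p = 0.0108, 3.44% of probe sets called in that direction), and with the animal as a block its adjusted p was 0.0365. Bub1b was also called lower in liver than in adrenal (-2.06, adjusted p = 0.0405, 1.01% of probe sets), at 0.109 with the animal block. Its difference from control was 0.26 in liver, 2.32 in adrenal and -0.09 in pancreas. Ube2c (-3.58, adjusted p = 0.0223) and Ccnb2 (-2.65, adjusted p = 0.0366) differed less in liver than in pancreas on day 14, where 1.72% of probe sets did, at 0.0521 and 0.0538 with the block. With the block another member, Cenpf, was called instead, smaller in liver than in pancreas (-3.13, adjusted p = 0.0355) and in adrenal than in pancreas (-2.63, adjusted p = 0.0303). On day 4 the signed effect on Hmmr was higher in liver than in adrenal by 2.86 (limma adjusted p = 0.0301, 0.203% of probe sets), at 0.103 with the block. The effects went opposite ways. Hmmr rose by 1.56 in liver. In adrenal it was -0.18, -0.28, -0.49 and 0.25 in controls and lower, at -1.46, -2.48, -1.13 and -0.88, at 60 mg/kg, a fall without overlap that was not called.

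AMG A gave no member call by limma in any of its 10 comparisons, where 0.062% of all tests were called, and 37 of 504 member tests had an unadjusted p under 0.05, against 7.09% of all tests, a share near the members' own. In liver at 30 mg/kg on day 14, where 0.353% of all probe sets were called, 9 of 42 members lay above control. There 8 members had an unadjusted p under 0.05, 7 of them lower, against 12.6% of all probe sets in either direction. Cdkn3 was -0.54, -0.49, -0.45 and -0.49 in those controls and -0.69, -0.93, -0.74 and -0.84 at 30 mg/kg (difference -0.31, SE 0.10, adjusted p = 0.191), without overlap; scores of this table have a smaller spread and are not comparable in size with those of the AMG B livers. Pttg1 (-0.32, adjusted p = 0.25) and Ccnb2 (-0.29, adjusted p = 0.26) came next. The median over 22 mitotic genes was -0.22, against 0.0021 over all probe sets.

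In adrenal at 30 mg/kg of AMG A the median mitotic difference was 0.28 and that of S-phase genes 0.20, with 50 of 63 probe sets above control; the smallest p was that of the Cdc20 probe set 1394113_at (-0.98, adjusted p = 0.48), and Cdkn3 differed by 1.00 (adjusted p = 0.86). In pancreas at 30 mg/kg the medians were -0.22 and -0.58, with Mcm4 (-1.59, adjusted p = 0.64) and Ccne1 (-1.63, adjusted p = 0.69) lower without overlap. Another of the 14 S-phase probe sets went the other way, with all treated pancreata above all controls. The 4 AMG A control pancreata varied in their mean S-phase score, at 1.84, 0.607, 1.13 and 0.378. None of these differences passed the test. The same holds for AMG B at 3 mg/kg in every tissue and day and at 60 mg/kg on day 1: over these 9 comparisons 0.0544% of all tests and no member were called, and 19 of 567 member tests had an unadjusted p under 0.05, where 6.61% of all tests did. The smallest p among them was that of Ccnb1 in pancreas at 3 mg/kg (1370346_at, -2.05, adjusted p = 0.27).

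The compounds shared a dose and day, within 1 table, only at 3 mg/kg on day 14 in adrenal and pancreas. No member's effect differed between AMG A and AMG B there by limma, where 0.00322% of all tests did, and 8 of 126 member tests had an unadjusted p under 0.05, against 6.98% of all tests, a share near the members' own. In adrenal the difference in effect (AMG A minus AMG B) was -0.24 for Cdkn3 (95% interval -1.65 to 1.16) and -0.29 for Cdk1 (-1.92 to 1.34). In pancreas it was -0.18 for Cdkn3 (-1.76 to 1.40), -1.39 for Cdk1 (-3.07 to 0.30) and -1.45 for Mki67 (-3.98 to 1.07). The smallest p-values were those of Mad2l1 in adrenal, by 1378028_at (-1.15, limma adjusted p = 0.930), and Aurkb in pancreas (-1.53, adjusted p = 0.504). These intervals are wide beside the differences themselves and do not show that the compounds act alike. The doses of 30 mg/kg of AMG A and 60 mg/kg of AMG B are not matched: Cdkn3 differed from its control by 1.00 and 2.21 in adrenal and by -0.34 and 1.62 in pancreas.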

How the data were processed

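Total RNA (5 ug, biotin labelled by a one-cycle protocol, per the labels) from 144 tissue samples was read on single-colour arrays of 2 designs. The authors deposited score values in which each probe set has a mean near 0 and an SD near 1 over the arrays; neither the labels nor the tables name the software, the array scaling or whether signals were linear or log before standardising. The scores were used as deposited, without further normalization, although the planned design allowed for log2 values. Because the scores are standardised, differences are in SD units. Probe sets were named from the platform annotation, and the 3 probe sets that carry a member's symbol together with another symbol were left out. Where a gene has several probe sets, medians and lists used the one with the largest share of its variance between tissues.

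Models were fitted with limma 3.58.1 (lmFit, contrasts, eBayes with trend; R 4.3.3) to all groups of a tissue, with AMG A and AMG B livers apart, and p-values were adjusted by Benjamini-Hochberg within each comparison over 31042 or 15866 probe sets (threshold 0.05). The code was tested on simulated data. Animals of a group are separate rats; the same animals gave the tissues of a day, so the animal number pairs samples between tissues, and a fit with the animal as a block was run for the 5 comparisons between tissues. The median correlation of deviations was 0.042, 0.015 and 0.029 for the same animal in liver and adrenal, liver and pancreas, and adrenal and pancreas, against -0.011, -0.0059 and -0.0092 for different animals of a group. Named genes are every called member by role, the 10 largest called without overlap in every animal, and the smallest p-values where none was called. Mki67, Top2a, Cdk1, Ccnb1, Cdkn3, Pcna and Mcm2 were read in every comparison, and their values are printed for only some comparisons. The members, lists and tests were chosen with earlier results of these data known. The number of arrays limits the precision.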

Additional observations from a re-analysis of the deposited data

Results flagged for a closer look

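In groups of 4 animals, Dixon's test at its 95% critical value was applied to 72 group means of mitotic and S-phase scores and 82 groups of called members, and 8 of these 154 tests set 1 animal apart, where chance gives about 1 in 20. For the mean mitotic score these were -0.0189 in animal 3035 (adrenal, AMG A 30 mg/kg, day 14; the others 0.149 to 0.156), 0.130 in animal 11 (adrenal, AMG B 60 mg/kg, day 1; the others -0.206 to -0.150), -0.424 in animal 3005 (liver, AMG A control, day 4; the others -0.709 to -0.672) and 0.181 in animal 3023 (pancreas, AMG A 3 mg/kg, day 14; the others -0.130 to -0.0793). Among called members, Ect2 was 0.545 in animal 24 (liver, 60 mg/kg, day 4), Mcm3 was 0.418 in animal 26 (adrenal control, day 14), and animal 35 stood apart for Mcm4 in liver (1.21) and Nuf2 in adrenal (1.67) at 60 mg/kg on day 14.

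The effect of AMG B at 60 mg/kg differed between days or tissues for 8 member tests by limma. Between days these were Cdkn3 in liver, larger on day 4 than on day 1 (3.40, adjusted p = 0.00614) and smaller on day 14 than on day 4 (-2.74, adjusted p = 0.0145), and Mcm4 in adrenal, larger on day 14 than on day 1 (1.22, adjusted p = 0.0365). Between tissues they were Hmmr on day 4 (liver minus adrenal 2.86), Bub1b on day 14 (liver minus adrenal -2.06, adrenal minus pancreas 2.42), and Ccnb2 and Ube2c on day 14 (liver minus pancreas -2.65 and -3.58).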

How the results depend on the processing

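No called member reversed its direction in its comparison under the alternative settings (omissions of 1 animal apart), and robust eBayes without trend moved no count by over 1.5 times. Members that were not called were not part of this check. Without animal 35, members with a positive difference in liver at 60 mg/kg on day 14 went from 54 to 33 of 63. The cause of the changes below was not tested, beyond what fewer samples or features tested bring.

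Fitting only the groups compared gave 4 members for liver 60 against 3 mg/kg on day 4, 0 for liver on day 14, 0 for the liver effect on day 14 against day 4, 1 for adrenal on day 14, 20 for adrenal controls on day 14 against day 1, 1 for pancreas on day 14 and 0 for pancreas 60 against 3 mg/kg. Quantile normalization gave 7 for adrenal on day 14, 7 for pancreas 60 against 3 mg/kg and 0 for liver against pancreas, with medians of 0.806 (mitotic) and 0.621 (S-phase) in pancreas and 0.0541 (mitotic) in adrenal at 60 mg/kg on day 1. Centring arrays gave 5 for pancreas 60 against 3 mg/kg, and the filter on low scores gave 2 for the liver effect on day 14 against day 4.

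With 1 probe set per gene the counts were 2 and 2 for the liver effect (day 4 against 1, 14 against 4), 2 for adrenal 60 against 3 mg/kg, 4 and 1 for the adrenal effect (day 14 against 1, 14 against 4), 5 for adrenal controls on day 14 against day 1 and 6 for pancreas 60 against 3 mg/kg. With the mean of probe sets they were 2, 2 and 2 for the first 3 of these, 3 for the adrenal effect on day 14 against day 1, 5 and 8 for adrenal controls (day 14 against 1, 14 against 4) and 5 for pancreas 60 against 3 mg/kg. With the animal as a replicate block, members called between tissues went from 1 to 0 (liver against adrenal, day 4), 1 to 0 (liver against adrenal, day 14), 2 to 1 (liver against pancreas, where both calls were lost and Cenpf was called) and 1 to 2 (adrenal against pancreas, where Cenpf was added).

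Leaving out 1 animal gave 7 to 12 members in liver on day 4, 0 to 1 in liver on day 14, 0 to 1 in adrenal on day 4, 5 to 17 in adrenal on day 14 and 6 to 21 in pancreas on day 14. Against 3 mg/kg it gave 8 to 11 in liver on day 4, and on day 14 it gave 0 to 6 in adrenal and 0 to 15 in pancreas. Effects between days ranged from 1 to 2 (liver, day 4 against 1), 1 to 13 (liver, 14 against 4; 13 without animal 35), 0 to 5 (adrenal, 14 against 1) and 0 to 1 (adrenal, 14 against 4). Adrenal controls ranged from 6 to 10 (14 against 1) and 8 to 12 (14 against 4). Between tissues the ranges were 0 to 2 and 0 to 1 (liver against adrenal, days 4 and 14), 0 to 8 (liver against pancreas) and 1 to 2 (adrenal against pancreas).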
